A study of Saccharomyces cerevisiae with 14 samples.

Results

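The loci of 10 glycolytic genes, FBA1, TPI1, TDH1, TDH2, TDH3, PGK1, GPM1, ENO1, ENO2 and PDC1, were examined for peaks of the zinc cluster transcription factor Sef1 in glycerol and in glucose. The genes were chosen by name, with earlier results of these data known, and a peak was assigned to a gene where its position lay between the ATG and the stop codon or at most 500 bp outside them in the S288C R64 annotation. They are 10 of the 6002 nuclear protein-coding genes of that annotation, and 67 of the 3812 peaks in the 7 deposited lists were assigned to them. The lists came from chromatin immunoprecipitation sequencing (ChIP-seq) of 1 W303 strain in which SEF1 carried a TAP affinity tag (W303ScSef1TAPNB1-1), so that every sample compared here held the tagged gene. Cells were grown for 4.5 h at 30°C in YPGly, in which glycerol has to be respired (3 biological repeats, 500 OD of cells each, fixed at 0.4 OD per ml), or in YPD, in which glucose is fermented (4 biological repeats, 1500 OD of cells each, immunoprecipitated in portions that were then pooled, fixed at 1.0 OD per ml). YPGly repeat 3 was sequenced separately, with paired reads. The amount of cells and the medium cannot be told apart, and no strain without the tag was analysed here.

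In glycolysis, aldolase splits the 6-carbon sugar into triose phosphates, and the enzymes below it carry each triose to pyruvate and return the ATP spent at the top. Yeast cells given glucose then decarboxylate most of the pyruvate and reduce the acetaldehyde to ethanol, whereas cells given glycerol feed it in at the triose level and respire. Several of these genes are among the most strongly expressed of the genome, and the steps of glyceraldehyde-3-phosphate dehydrogenase, enolase and pyruvate decarboxylase are each encoded by several related copies.

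Because the results turn on which copy of a family carried peaks, a stretch under a peak is shown with the same stretch of its copies, as the coding strand of the R64 reference, with capitals at the bases that differ from the first gene of each set. The first set starts 27 bp from the ATG and spans the first group of TDH3 peaks (TDH3, chrVII:883634-883783, minus strand; TDH2, chrX:454505-454654, minus strand; TDH1, chrX:338298-338447, plus strand). TDH2 and TDH1, which had no peak, differ there from TDH3 at 14 and 30 of 150 bases.
TDH3: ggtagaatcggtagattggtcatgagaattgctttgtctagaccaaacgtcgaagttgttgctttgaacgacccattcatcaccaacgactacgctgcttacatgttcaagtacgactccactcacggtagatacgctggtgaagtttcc
TDH2: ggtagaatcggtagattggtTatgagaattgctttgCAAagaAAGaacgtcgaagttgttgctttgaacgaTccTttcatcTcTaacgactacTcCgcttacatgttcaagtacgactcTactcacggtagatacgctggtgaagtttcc
TDH1: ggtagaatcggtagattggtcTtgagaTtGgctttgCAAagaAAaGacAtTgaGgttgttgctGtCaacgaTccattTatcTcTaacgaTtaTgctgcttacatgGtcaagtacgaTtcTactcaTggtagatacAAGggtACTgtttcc

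The second set starts 6 bp from the ATG and spans the first group of PDC1 peaks (PDC1, chrXII:233926-234075, minus strand; PDC5, chrXII:410729-410878, plus strand; PDC6, chrVII:652826-652975, minus strand). PDC5 differs from PDC1 at 22 bases of this stretch and PDC6 at 28, and no peak lay in the coding sequence of either.
PDC1: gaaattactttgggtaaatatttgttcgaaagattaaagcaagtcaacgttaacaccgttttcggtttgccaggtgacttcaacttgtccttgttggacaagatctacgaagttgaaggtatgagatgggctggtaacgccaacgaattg
PDC5: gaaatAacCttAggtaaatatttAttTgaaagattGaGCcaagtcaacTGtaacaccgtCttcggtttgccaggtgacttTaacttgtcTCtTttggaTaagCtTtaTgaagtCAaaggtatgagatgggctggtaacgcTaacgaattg
PDC6: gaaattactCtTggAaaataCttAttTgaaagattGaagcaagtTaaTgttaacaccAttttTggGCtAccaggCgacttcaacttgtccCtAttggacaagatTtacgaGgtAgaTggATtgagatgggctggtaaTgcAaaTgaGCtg

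The third set starts 541 bp from the ATG and spans both ENO1 peaks and an ENO2 peak (ENO1, chrVII:1001468-1001617, plus strand; ENO2, chrVIII:451868-452017, plus strand). Both enolase genes had peaks, and only 3 bases of this stretch tell them apart.
ENO1: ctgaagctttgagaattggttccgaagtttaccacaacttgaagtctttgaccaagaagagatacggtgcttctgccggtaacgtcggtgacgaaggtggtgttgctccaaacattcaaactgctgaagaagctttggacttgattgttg
ENO2: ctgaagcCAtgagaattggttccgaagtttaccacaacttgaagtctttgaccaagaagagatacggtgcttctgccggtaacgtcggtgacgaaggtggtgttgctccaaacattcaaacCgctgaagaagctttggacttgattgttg

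All 67 peaks at the glycolytic genes were in YPD lists, and none was in a YPGly list. The number of the 10 genes with a peak was 0, 0 and 0 in YPGly repeats 1 to 3, against 7, 7, 7 and 5 in YPD repeats 1 to 4 (mean 6.5 ± 1, SD, n = 4), so the media did not overlap. Over all protein-coding genes the share with a peak was 8.61, 6.61 and 6.81% in YPGly repeats 1 to 3. In YPD repeats 1 to 4 it was 8.78, 12.3, 10.1 and 9.95%, so these shares did not overlap between the media either. The study kept single peaks that were found in at least 3 repeats of a medium. Here the same number of lists was asked of a gene, with any peak within 500 bp in each list. In this way 0 of the 10 genes had a peak in YPGly, where 5.86% of all protein-coding genes did, and 6 of the 10 had one in YPD, where 9.01% of all genes did. At a share of 5.86% a set of 10 genes would often give 0, so the 0 in YPGly does not set these genes apart. The same 6 genes (FBA1, TPI1, TDH3, PGK1, ENO2 and PDC1) had a peak in at least 3 YPD lists and in no YPGly list, a pattern found in 3.72% of all genes. TDH1 and TDH2 had no peak in any list.

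**Figure D1:**
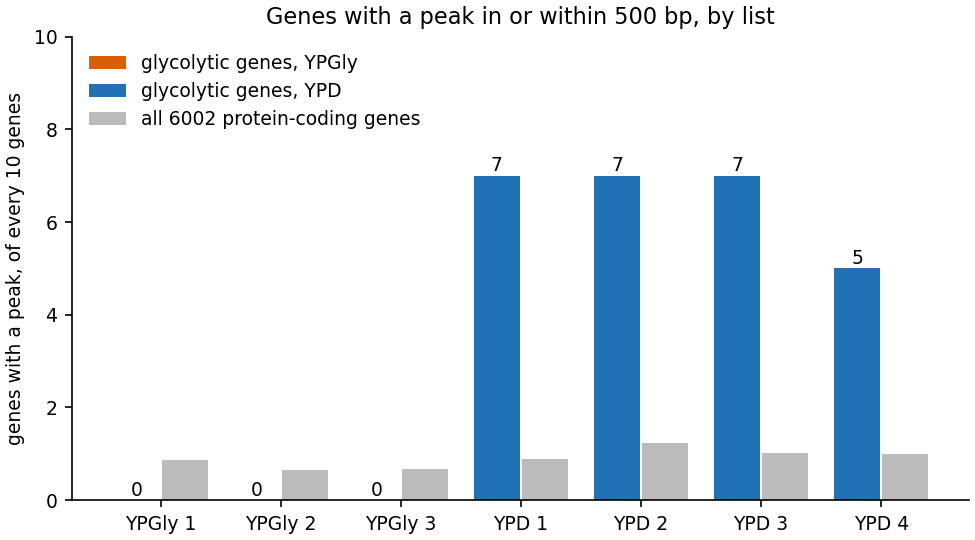
Number of genes with a peak in the gene or within 500 bp, out of every 10 genes (vertical axis), in the 3 YPGly and 4 YPD lists (horizontal axis). Colored bars are the 10 glycolytic genes, with their number above each bar, and grey bars are all 6002 protein-coding genes. The glycolytic genes had no peak in the YPGly lists and 5 to 7 of them had one in the YPD lists. Of all genes, 6.61 to 8.61% had one in the YPGly lists and 8.78 to 12.3% in the YPD lists.

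The peaks lay in the genes and not before them. Of the 67 peaks, 60 lay in coding sequence, 7 on the 3′ side (after the stop codon) and 0 on the promoter side (before the ATG). The share in coding sequence was 93.8, 90.5, 83.3 and 91.7% of these peaks in YPD repeats 1 to 4 (mean 89.8 ± 4.52%, SD, n = 4). Of all peaks in a list, 16.3 to 17.5% lay in coding sequence in YPGly and 19.0 to 24.8% in YPD. These shares count peaks at any distance from a gene. The glycolytic peaks lay by rule within 500 bp of a gene, so the shares cannot be compared directly. Of the 10 genes, 6 had a coding peak in at least 3 YPD lists, against 1.38% of all protein-coding genes. The 10 genes supplied 9.48 to 11.8% of all coding peaks in a YPD list.

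**Figure D2:**
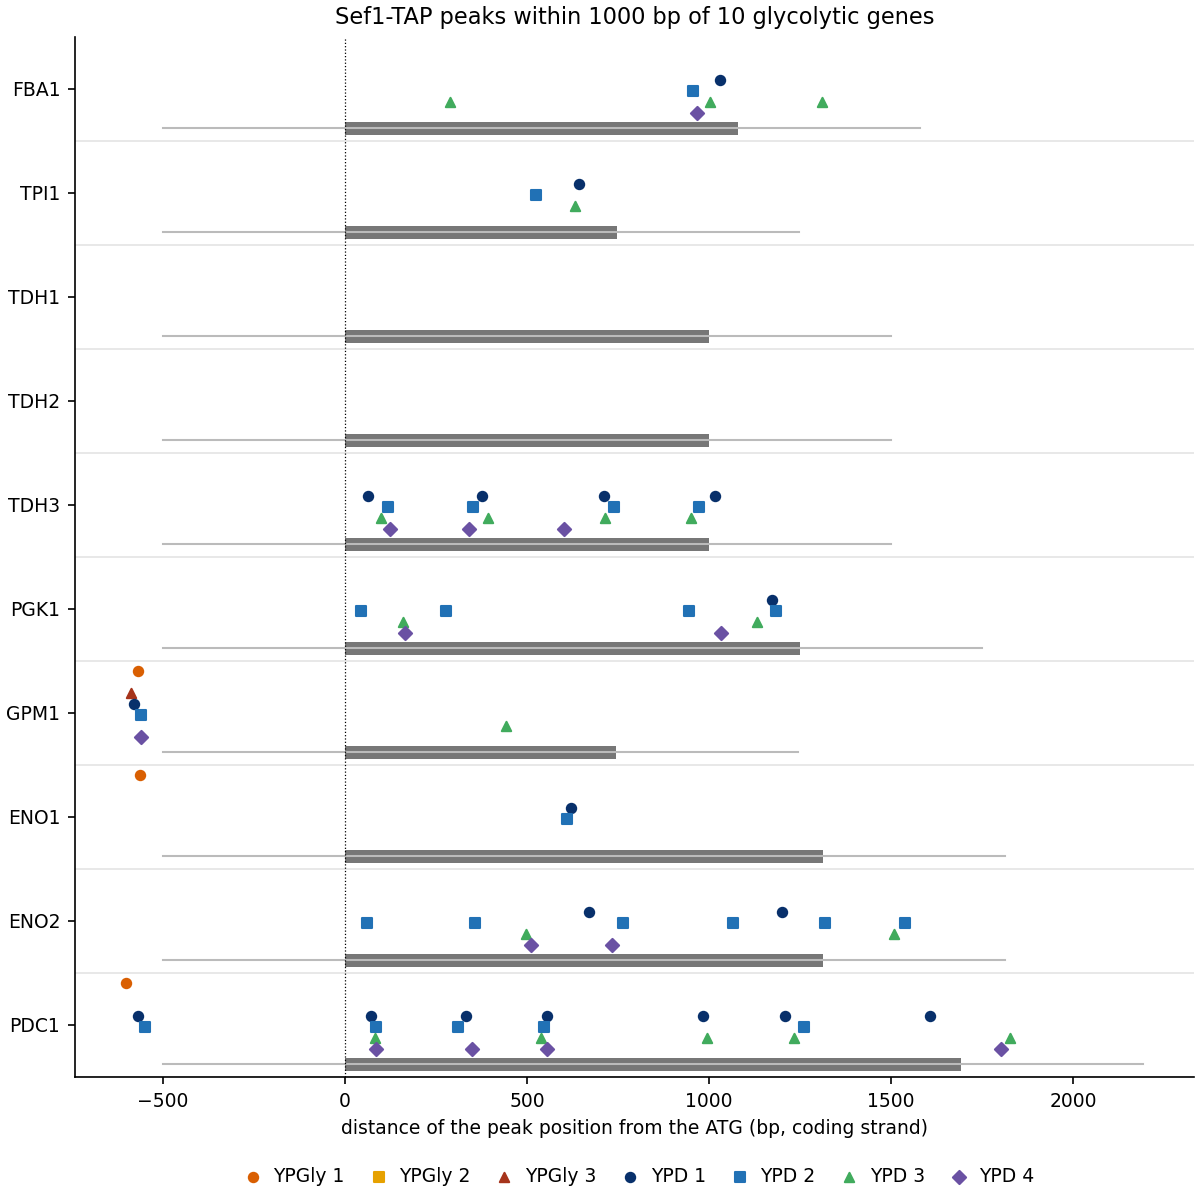
Positions of the peaks at each gene, as distance from the ATG on the coding strand in bp (horizontal axis), with 1 symbol per peak and a color and shape per list. Dark bars are coding sequences, thin grey lines show the 500 bp on each side that counted, and symbols further out lie up to 1000 bp away and were not counted. The peaks of the 4 YPD lists fell along the coding sequences of TDH3, PGK1, ENO2 and PDC1, and TDH1 and TDH2 had none.

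The enzymes above the dehydrogenase step were the first to be considered. FBA1 (YKL060C, chrXI:326408-327487, minus strand), the only aldolase gene, had peaks in 0 of 3 YPGly lists and 4 of 4 YPD lists, 5 in the coding sequence and 1 on its 3′ side. A peak 957 to 1031 bp from the ATG, near the end of the coding sequence, was in every YPD list, with enrichments (ChIP over its own input, fold) of 2.83, 1.61, 2.06 and 2.04 in YPD repeats 1 to 4 (2.14 ± 0.505, SD). The other FBA1 peaks were in YPD repeat 3 alone, at 289 bp (2.20-fold) and at 1310 bp (1.22-fold). The position at 1310 bp lies after the stop codon, and the gene on that side, BLI1, points towards FBA1, so the stretch between them follows both stop codons. TPI1 (YDR050C, chrIV:555726-556472, minus strand), triose phosphate isomerase, had 1 coding peak in each of 3 YPD lists, 526 to 644 bp from the ATG, with enrichments of 2.20, 1.55 and 1.74 in YPD repeats 1 to 3 (1.83 ± 0.333, SD, n = 3). TPI1 had no peak in YPD repeat 4 or in YPGly.

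The 3 genes for glyceraldehyde-3-phosphate dehydrogenase, which makes the first NADH of the pathway, were unlike each other. TDH3 (YGR192C, chrVII:882812-883810, minus strand), which encodes the main isozyme in growing cells, had 4, 4, 4 and 3 peaks in YPD repeats 1 to 4 and 0 in each YPGly list. They formed 4 groups along the gene, 216 to 389 bp apart within a list. The first group, 64 to 124 bp from the ATG, had enrichments of 2.52, 1.86, 2.10 and 2.55 (2.26 ± 0.335, SD, n = 4). The second, at 340 to 392 bp, had enrichments of 3.45, 1.83, 2.78 and 2.67 (2.68 ± 0.666). The third, at 603 to 740 bp, had 3.97, 2.20, 3.09 and 2.99 (3.06 ± 0.722), the highest at this gene in each list. The last group, at 952 to 1016 bp, was found in YPD repeats 1 to 3 with 3.81, 2.11 and 2.89 (2.94 ± 0.849, n = 3), and only its peak in repeat 1 lay after the stop codon. Intervals of the TDH3 peaks of all lists covered 94.4% of its coding sequence. TDH1 (YJL052W, chrX:338271-339269, plus strand), an isozyme made mainly in stationary phase, and TDH2 (YJR009C, chrX:453683-454681, minus strand) had no peak in any of the 7 lists.

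The next steps gave 1 gene with regular peaks and 1 with a single peak. PGK1 (YCR012W, chrIII:137746-138996, plus strand), phosphoglycerate kinase, which makes the first ATP that glycolysis returns, had 1, 4, 2 and 2 peaks in YPD repeats 1 to 4, all 9 in the coding sequence. Near the start of the gene, 44 to 278 bp from the ATG, enrichments were 1.38, 1.96 and 1.84 in YPD repeats 2 to 4 (1.73 ± 0.305, SD, n = 3). Towards the end, at 946 to 1183 bp, they were 2.25, 1.74, 1.94 and 2.23 in YPD repeats 1 to 4 (2.04 ± 0.245, n = 4). The middle of the gene had no peak. GPM1 (YKL152C, chrXI:163642-164385, minus strand), phosphoglycerate mutase, had 1 coding peak at 443 bp in YPD repeat 3 (1.88-fold), a call without a second list.

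The enolase genes, whose product makes phosphoenolpyruvate, both had peaks in glucose only. ENO2 (YHR174W, chrVIII:451327-452640, plus strand), the isozyme known to be induced by glucose, had 2, 6, 2 and 2 peaks in YPD repeats 1 to 4, 9 in the coding sequence and 3 on the 3′ side. Peaks 358 to 764 bp from the ATG were in all 4 lists, with mean enrichments per list of 3.12, 1.91, 2.23 and 2.56 (2.45 ± 0.515, SD, n = 4). Peaks at 1065 to 1539 bp were in YPD repeats 1 to 3 with 2.94, 1.72 and 1.97 (2.21 ± 0.647, n = 3). This last group ran past the stop codon, and its peaks lay at -480 to -6 bp from the ATG of CTR2, a copper transporter gene, which therefore shares them under the 500-bp rule. A peak at 60 bp in YPD repeat 2 alone (1.25-fold) also lay before YHR173C, an uncharacterized reading frame. ENO1 (YGR254W, chrVII:1000927-1002240, plus strand), which is also made without glucose, had 1 peak in each of 2 lists, at 609 and 622 bp, with enrichments of 1.77 in YPD repeat 1 and 1.23 in YPD repeat 2.

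PDC1 (YLR044C, chrXII:232390-234081, minus strand), the main pyruvate decarboxylase, which commits pyruvate to ethanol, had the most peaks. There were 6, 4, 5 and 4 in YPD repeats 1 to 4 and 0 in each YPGly list, 17 in the coding sequence and 2 on the 3′ side. The first group lay 71 to 85 bp from the ATG, a spread of 14 bp over 4 lists, with enrichments of 3.01, 1.79, 2.22 and 2.24 (2.32 ± 0.509, SD, n = 4). The group at 311 to 556 bp had means per list of 4.68, 2.08, 3.32 and 3.29 (3.34 ± 1.06, n = 4). Further along, a peak at 985 to 994 bp was in YPD repeats 1 and 3 (4.73- and 3.19-fold), and one at 1208 to 1261 bp was in YPD repeats 1 to 3 (4.29-, 2.34- and 3.29-fold, 3.31 ± 0.975, n = 3). The last group, at 1608 to 1826 bp, was in YPD repeats 1, 3 and 4 (4.49-, 2.21- and 2.29-fold, 3.00 ± 1.29, n = 3). In this group the peak of YPD repeat 1 lay in the coding sequence and the others after the stop codon, and all 3 lay at -460 to -242 bp from the ATG of TRX1, a thioredoxin gene.

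Whether the calls at each gene differed between YPGly and YPD was tested by counting the lists with and without a peak in Fisher's exact test, two-sided. FBA1, TDH3, PGK1, ENO2 and PDC1, with peaks in 0 of 3 YPGly lists and 4 of 4 YPD lists, each gave an exact p = 0.0286, the smallest value that the 35 splits of 7 lists allow. TPI1 gave p = 0.143, ENO1 p = 0.429 and GPM1 p = 1 in the same exact test. After Benjamini-Hochberg adjustment over the 1011 genes with a peak in any list, the 5 genes had an adjusted p of 0.151 and TPI1 one of 0.407, so no gene passed 0.05. Before adjustment, 191 genes had p under 0.05, of which 136 (13.5% of those tested) had more YPD lists, as the 5 genes did, and 55 (5.44%) more YPGly lists. The separation of the media at these 5 genes was therefore complete in the lists. With so few lists, 0.151 was the smallest adjusted p of any gene, so the adjusted test could not decide for these 5 genes.

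In YPD, the highest enrichment at a gene was compared between genes, with 1 to 6 peaks per list to take it from. The highest enrichment at PDC1 was 5.03, 2.34, 3.32 and 3.29 in YPD repeats 1 to 4 (3.49 ± 1.12, SD), at TDH3 3.97, 2.20, 3.09 and 2.99 (3.06 ± 0.722) and at ENO2 3.12, 2.00, 2.23 and 2.58 (2.48 ± 0.488). PDC1, TDH3 and ENO2 came in this order in 4 of 4 lists. Below them were FBA1 (2.83, 1.61, 2.20 and 2.04, mean 2.17 ± 0.503), PGK1 (2.25, 1.87, 1.96 and 2.23, mean 2.08 ± 0.192) and TPI1 (1.83 ± 0.333 in 3 lists). FBA1 was above PGK1 in YPD repeats 1 and 3 and below it in repeats 2 and 4. Each gene's mean differed from that of its neighbour in this order by less than the larger of their SDs. The values of a list also moved together, with YPD repeat 1 the highest and repeat 2 the lowest at FBA1, TDH3, PGK1, ENO2 and PDC1, and with the median over all peaks of a list at 2.07, 1.47, 1.74 and 1.79.

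**Figure D3:**
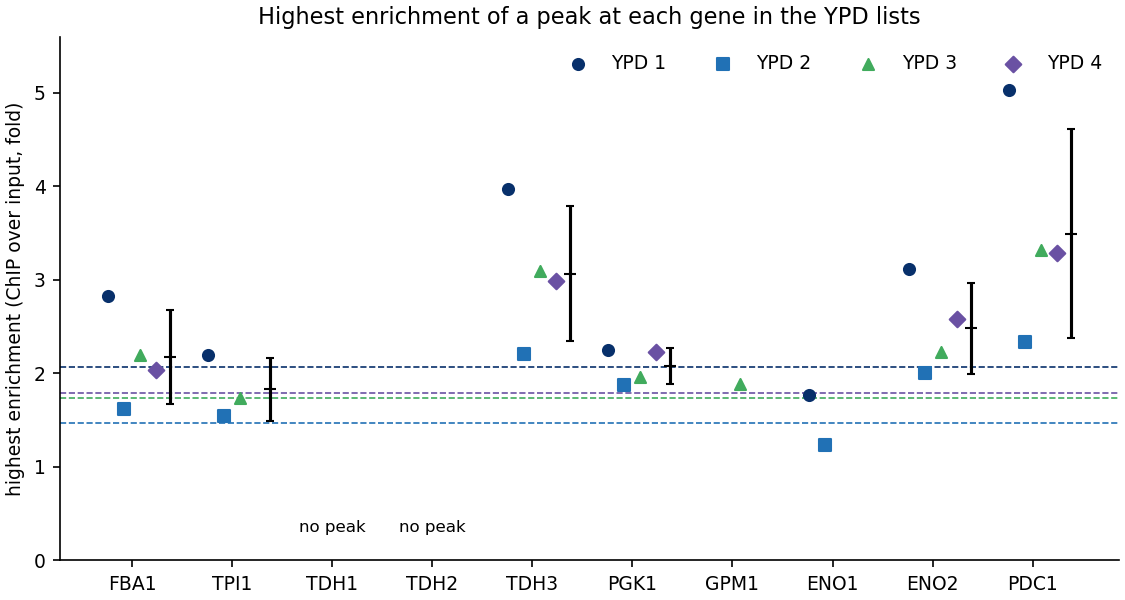
Highest enrichment (ChIP over input, fold; vertical axis) of a peak at each gene (horizontal axis) in each YPD list, with a color and shape per list. Bars give mean ± SD where at least 3 lists had a peak, and dashed lines give the median over all peaks of the list of the same color. FBA1, TDH3, PGK1, ENO2 and PDC1 lay above the dashed line of their own list in all 4 lists.

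Peaks at the glycolytic genes stood high in their lists by enrichment and low by score. Their median enrichment was 3.29, 1.83, 2.21 and 2.54 in YPD repeats 1 to 4, with single peaks between 1.22 and 5.03. Ordered from the top of the list, their median place by enrichment was at 22.1, 25.7, 27.1 and 25.4% of the list. By score, the caller's measure of the evidence for a peak, it was at 78.5, 72.5, 78.5 and 75.1%. A lower place by score than by enrichment was found for 66 of the 67 peaks. Other peaks in coding sequence in the YPD lists had median places of 32.0 to 44.9% by enrichment and 75.1 to 77.1% by score, and peaks outside coding sequence 52.3 to 56.2% and 43.8 to 47.2%. The low places by score were thus shared with the other coding peaks in YPD, and no test of the difference was made. Coding peaks of the YPGly lists had median places of 40.6 to 46.1% by enrichment and 42.5 to 48.8% by score.

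**Figure D4:**
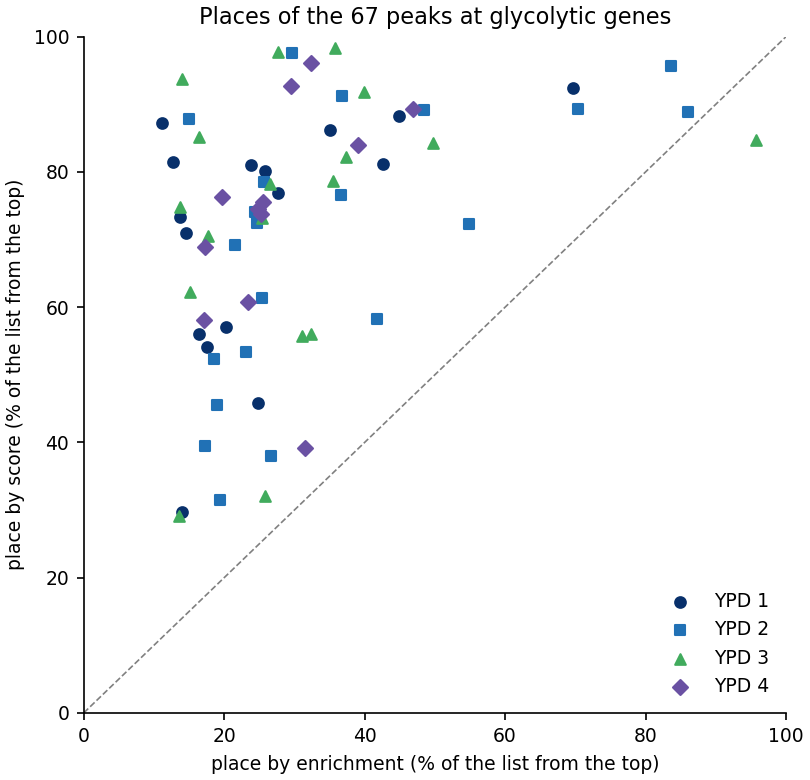
Place of each of the 67 peaks in its own list by enrichment (horizontal axis) and by score (vertical axis), as percent of the list counted from the top, with a color and shape per YPD list. On the dashed line both places are equal, and 66 of the 67 peaks lie above it, that is, lower in the list by score.

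Several peaks along 1 coding sequence were uncommon. Of the 198 genes with a coding peak in a YPD list, the median gene had 2 such peaks over the 4 lists, whereas PDC1 had 17 (6, 4, 4 and 3), TDH3 14 (3, 4, 4 and 3), and ENO2 and PGK1 9 each. In all, 8 genes had 9 or more, and 4 of these 8 were glycolytic. At least 3 coding peaks in at least 3 YPD lists were found in 4 genes, PDC1, TDH3 and, named after their values were seen, PMA1 (the plasma membrane proton pump) and EFT1 (a translation elongation factor gene with a near-identical copy). The positions of these peaks also varied more between lists. For the 9 glycolytic sites in at least 3 lists with a single peak per list, positions spanned a median of 64 bp (14 to 218 bp), against 27 bp for the other 511 such sites and 29.5 bp for the 76 of them in coding sequence. This is a description, and the difference was not tested.

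The DNA under the peaks was searched for CCGNNNNNCGG, a paired CGG pattern of the kind that zinc cluster factors such as Sef1 recognize, which reads the same on both strands. None of the 67 windows of 250 bp around the glycolytic peaks held it, against 30 of 518 (5.79%) for other coding peaks in YPD, 186 of 2524 (7.37%) for all YPD peaks and 194 of 1288 (15.1%) for all YPGly peaks. The 67 windows overlap where peaks of different lists share a site, so they are not independent. The pattern was in 0 of the 10 coding sequences and in 0 of the 10 upstream stretches of 500 bp, where 3.17% and 2.13% of all genes hold it. At such low shares most sets of 10 genes would give 0, so these counts do not set the glycolytic genes apart. Only exact matches were searched. The GC content of the windows had a median of 45.2%, close to that of other coding peaks in YPD (44.4%) and above that of other YPD peaks (40.0%).

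GLK1 (YCL040W, chrIII:50838-52340, plus strand), glucokinase, which phosphorylates glucose at the entry of the pathway, was the enzyme gene outside the 10 with a coding peak in every list. Its peak lay 712 to 726 bp from the ATG, within 14 bp in all 7 lists, with enrichments of 7.26, 5.02 and 6.16 in YPGly (6.15 ± 1.12, SD, n = 3) and 7.28, 6.19, 6.04 and 8.60 in YPD (7.03 ± 1.18, n = 4). These values overlapped between media. By place in the list, the peak stood at 18.6% in YPGly and 5.96% in YPD on average, a difference of 12.6 percentage points (exact permutation test over the 35 splits, two-sided, p = 0.0286, adjusted p = 0.0846 over 225 genes with peaks in all lists). A place in percent depends on the length of the list, and the YPGly lists were shorter. Counted from the top, the peak was number 81, 81 and 73 in YPGly repeats 1 to 3 and number 40, 31, 36 and 39 in YPD repeats 1 to 4. GLK1 held an exact match to the pattern at 551 bp from the ATG (chrIII:51389-51399, CCGcatcgCGG) that no peak covered. The peak in all 7 lists had another exact match close to its position.
GLK1, 729 bp from the ATG (chrIII:51567-51577, capitals mark CCG and CGG): CCGgtcatCGG
GLK1, -197 bp from the ATG (chrIII:50641-50651): CCGacggaCGG
Peaks at -211 to -196 bp from the GLK1 ATG, over the upstream match, were in YPGly repeats 1 and 3 (3.08- and 2.09-fold) and in YPD repeats 2 to 4 (1.61-, 1.20- and 1.43-fold). GLK1 also had a weaker coding group, 1383 to 1405 bp from the ATG, in 0 YPGly lists and in YPD repeats 1, 3 and 4 (1.33-, 1.42- and 1.52-fold). By enrichment these peaks stood at 93.9, 81.0 and 76.7% of their lists, lower than the median glycolytic peak of the same list. No gene among the 10 had a peak in all 7 lists, so the place of a glycolytic peak could not be compared between media.

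Reads from near-identical copies can be placed at either gene, so the copies were compared base by base. The coding sequence of TDH3 is 95.8% identical to that of TDH2, with 42 of 999 bases different, and 88.9% identical to that of TDH1. ENO2 and ENO1 are 94.8% identical, and PDC1 is 87.2% identical to PDC5 and 75% to PDC6. Runs of 75 bases, the read length, that occur once in the genome made up 87.4% of TDH3, 81.1% of TDH2, 90.2% of TDH1 and 89.3% of either enolase gene, and 100% of the other genes of the list and of PDC5 and PDC6. Most of TDH1 and TDH2 could thus be told from TDH3 by such reads. By peak group, 100% of such runs were unique in the first and last groups of TDH3, 62.6% in the second and 92.9% in the third, and 74.1% under the ENO1 peaks. For ENO2 the share was 63.4% under the peak at 60 bp, 85.9% in the group at 358 to 764 bp and 100% in the last group. Only the part of a group inside the gene was counted. How the authors treated reads that fit more than 1 place is not given in the sources used here, and the part of shared reads in these calls was not tested.

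**Figure D5:**
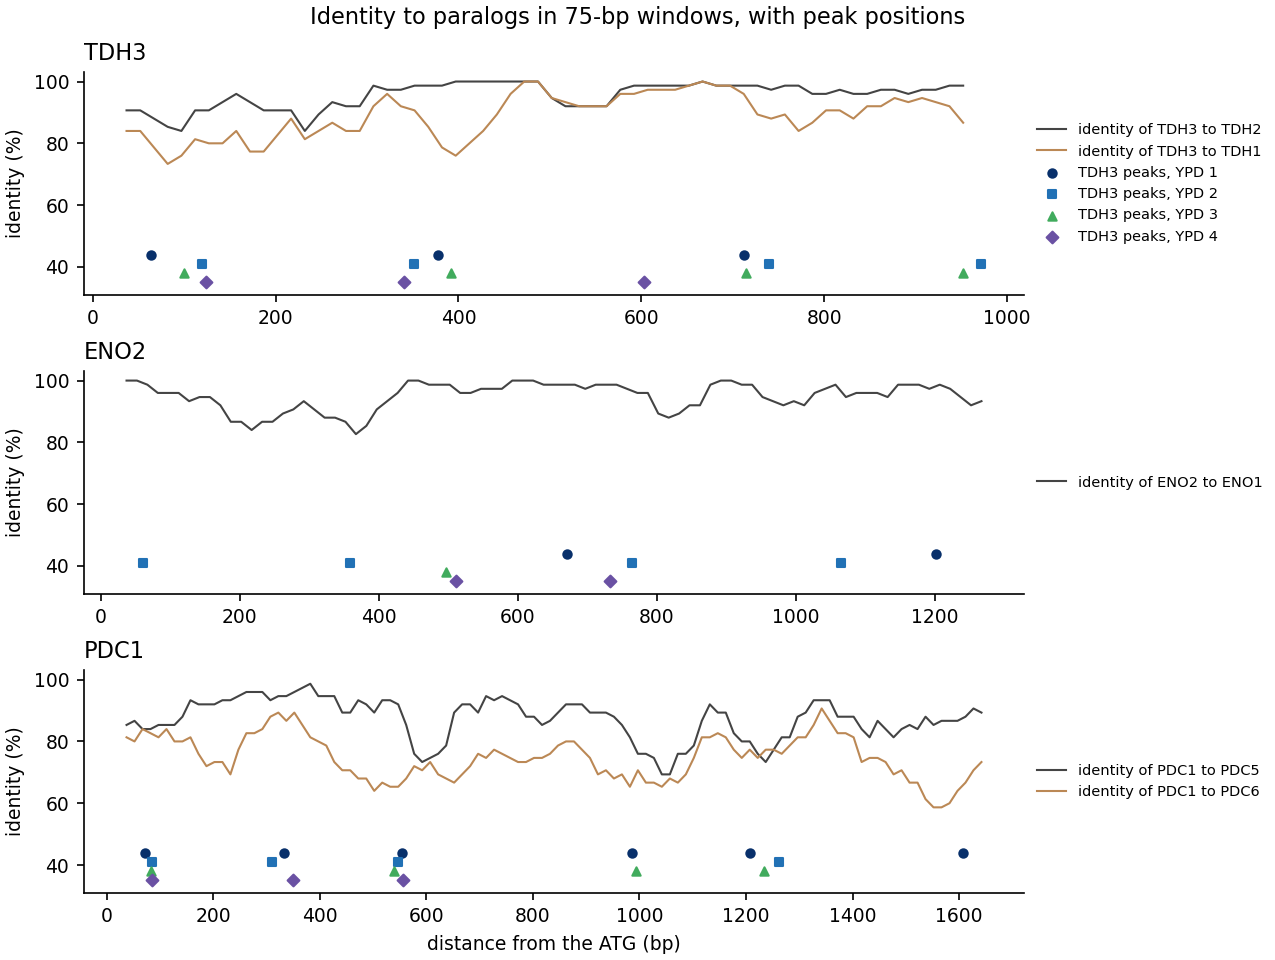
Percent identity (vertical axis) of TDH3, ENO2 and PDC1 to their copies in windows of 75 bp along the coding sequence (distance from the ATG in bp, horizontal axis), as lines, with the coding peaks of each YPD list as symbols drawn below at heights that carry no value. Peaks lay over stretches of both lower and higher identity, including the first TDH3 group, where all runs of 75 bases are unique.

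Peaks just outside the 500-bp limit are given for comparison. Between 500 and 1000 bp from the genes, 9 peaks were found, all on the promoter side, and here YPGly lists were present. At 560 to 588 bp before GPM1, peaks were in YPGly repeats 1 and 3 (1.54- and 1.28-fold) and in YPD repeats 1, 2 and 4 (1.56-, 1.35- and 1.63-fold), in a position that also belongs to the neighbouring gene NNR2. Before PDC1, single peaks were in YPGly repeat 1 (602 bp, 1.21-fold) and in YPD repeats 1 and 2 (569 and 548 bp, 1.35- and 1.28-fold), near STU2. Before ENO1, 1 peak was in YPGly repeat 1 (563 bp, 1.12-fold). Their enrichments were all below the median of their own list.

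Another 13 enzyme genes of the path from glucose to ethanol were taken from textbook knowledge for comparison. In at least 3 YPGly lists 2 of the 13 had a peak (GLK1 and PDC6), in at least 3 YPD lists 2 had one (GLK1 and ADH1), and 8 had none in any list (HXK1, PGI1, PFK1, PFK2, GPM2, GPM3, PYK2 and PDC5). PDC6, a minor pyruvate decarboxylase gene, had peaks 338 to 407 bp after the stop codon, with enrichments of 2.01, 1.50 and 1.53 in YPGly repeats 1 to 3 and 1.28 in YPD repeat 2 alone (exact p = 0.143, adjusted p = 0.407). ADH1, the alcohol dehydrogenase that makes ethanol, had 0 YPGly lists and 3 YPD lists with a peak (exact p = 0.143), like TPI1. Its coding peaks were in YPD repeat 2 (1.84- and 1.82-fold) and YPD repeat 4 (2.50-fold). HXK2, the main hexokinase, and CDC19, the main pyruvate kinase, had coding peaks in a single YPD list each (1.27-fold in repeat 2, and 1.75- and 2.03-fold in repeat 3). For scale, in at least 3 YPGly lists 2 of 137 cytosolic ribosomal protein genes and 10 of 20 TCA cycle genes had a peak, and in at least 3 YPD lists 19 of the 137 and 12 of the 20 did.

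These comparisons are limited by what a list holds. The lists give no read numbers. The paper states an approximate depth for the libraries in general, so the depth of each single library is unknown. A gene without a peak was not called, which does not show that Sef1 was absent. The lists held 520, 373 and 395 peaks in YPGly, against 528, 771, 615 and 610 in YPD, and with each list held to its 373 peaks of highest score, only PDC1 and TDH3 (in 4 YPD lists each) of the 10 genes, and 5.71% of all genes, had peaks in at least 3 YPD lists, with none in YPGly.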

How the data were processed

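Sef1-TAP ChIP-seq lists of 3 YPGly and 4 YPD repeats were used, and groups follow the sample labels. Per the methods and the submitters' processing notes, the authors trimmed 75-bp reads with Trimmomatic 0.36, mapped them to S288C R64 with Bowtie2 2.3.3 and called peaks in each ChIP library against its own input, without pooling repeats. The peak caller is not given in the sources used here. Each deposited list gives a position, a score (the caller's evidence, not on a common scale between lists), an FDR (a p-value adjusted within the list, at most 0.05, deposited also as −log10 in the interval lists) and an enrichment (the authors' fold ratio of ChIP over input, of which the maximum-likelihood estimate was used and a lower bound served as an alternative). The values were used as deposited, and a peak was placed by its rank within its own list wherever lists were set side by side. Intervals were 190 to 260 bp wide.

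Peak positions were assigned to genes within 500 bp, and to coding sequence, promoter side or 3′ side. Overlapping intervals (1 bp or more) of the lists made up a site, and several peaks of a list in a site were averaged. Fisher's exact tests were run over all genes with a peak and adjusted by the Benjamini-Hochberg method. Exact permutation tests were run over the 35 splits of the 7 lists. They give the share of the splits with a difference between media at least as large as the one found. Errors are SD over lists, since without read numbers no counting error can be given. The named genes are the 10 glycolytic genes, 13 other enzymes of the pathway, neighbours that share a peak, and ribosomal protein and TCA cycle genes as counts. The genes and gene lists were chosen with earlier results of these data known. Alternatives were the distance rule (0 or 1000 bp, or interval overlap), an enrichment of at least 2, an FDR of at most 0.01, lists of equal length, 2 lists in place of 3, the lower bound, 50% overlap for sites, repeats left out in turn and a replicate block. The scripts were tested on simulated lists. The lists are attached to 7 of the 14 samples, titled as input libraries except for those of YPGly repeats 2 and 3 (titled ChIP, but described as paired with a ChIP), and each was taken as the ChIP against its input of that repeat. The 7 other samples were not analysed here. The software was scipy 1.17.1, pandas 2.3.3 and numpy 2.4.6 for computation and matplotlib 3.10.9 for figures, under Python 3.11.15.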

Additional observations from a re-analysis of the deposited data

Results flagged for a closer look

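YPD repeat 4 had 5 glycolytic genes with a peak, against 7 in each of YPD repeats 1 to 3. It held no peak at TPI1, and ENO1 (repeats 1 and 2) and GPM1 (repeat 3) had peaks in other YPD lists only. Of 16 groups of 4 YPD values examined by Dixon's test, only these counts were flagged. With the other values all equal to 7, any different count would have been flagged, however small the gap. The usual chance rate of about 1 in 20 does not hold for such tied counts, so no conclusion is drawn from the flag.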

How the results depend on the processing

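No setting gave a glycolytic gene in at least 3 YPGly lists, nor in at least 2 where 2 lists were asked in place of 3. With a YPGly repeat left out in turn, a peak in both remaining YPGly lists was asked, and the number stayed at 0 (0 to 0). With the main settings only 5.86% of all protein-coding genes had a peak in at least 3 YPGly lists. At so low a share a set of this size would often give 0, so this stability does not set the glycolytic genes apart. The number in at least 3 YPD lists, 6, fell to 2 with each list held to the length of the shortest, and was 4 to 7 otherwise (5 to 6 with a repeat left out). The difference in genes with a peak per list, YPGly minus YPD, was -6.5, and became -4.25 with an enrichment of at least 2, -4.5 with an FDR of at most 0.01 and -2.25 with lists of equal length (-7 to -6.33 with a repeat left out). These settings keep fewer peaks by construction. The repeat numbers are not stated to pair cultures, and since all YPGly counts were 0 no check of pairing could be made. With the replicate block the difference was -7. The share of peaks in coding sequence, 89.8%, was 100% with positions inside the gene only, 83.5% with 1000 bp or with interval overlap and 95% with lists of equal length (88.5 to 92.0% with a repeat left out). No gene passed the adjusted Fisher's exact test under any setting, but with 7 lists the adjusted p was at best 0.151 as reported, so this count says nothing about stability. The number with an unadjusted p under 0.05, 191, was lowest at 32 with positions inside the gene and 73 with an enrichment of at least 2, and highest at 282 with 1000 bp. The mean enrichments of the 14 sites in at least 3 YPD lists were recomputed 78 times and moved by less than their SD each time. Alternatives for places between media were not run, since no glycolytic gene had peaks in all lists. The unknown depth of each single library limits every missing call.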

Other observations

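The peak of ADH1 after its stop codon differed widely between lists. It lay 97 to 110 bp after the stop in YPD repeats 1, 2 and 4, with enrichments of 2.93, 1.61 and 30.6, and in YPD repeat 4 it was the 15th of 610 peaks by enrichment, with a score of 4827. No YPGly list had a peak there.

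Beside PDC1 and TDH3, PMA1 had 17 coding peaks over the YPD lists (4, 5, 3 and 5) and EFT1 had 14 (3, 5, 3 and 3). SSA2, a cytosolic chaperone gene, had 11 (4, 2, 3 and 2), and ACO1, aconitase of the TCA cycle, had 9 (1, 3, 3 and 2). Like the glycolytic genes, these 4 had 0 coding peaks in the YPGly lists. With the 500 bp on each side counted, PMA1 also had a peak in 0 YPGly lists. Unlike the glycolytic genes, SSA2 and ACO1 each had a peak in 3 YPGly lists by that rule. They were picked after their values were seen, and EFT1 and SSA2 have near-identical copies (EFT2 and SSA1) with which reads can be shared.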
